A study of Homo sapiens with 9 samples.

Results

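HK-2 cells, an immortalised line from human kidney proximal tubule epithelium, were compared after 24 h of transforming growth factor β1 (TGFβ1) and before treatment at 0 h. The comparison used 6 of the 9 arrays of the series, 3 per group, and every array of 24 h cells was set against the untreated array that carried the same replicate number. Per the labels, the whole experiment was repeated on 3 days, and on each day the plates of a time point were pooled into 1 RNA sample, so a replicate number is called a run here. The remaining 3 arrays, of cells at 48 h of TGFβ1, entered the fit and are described at the end. All groups were grown in the same medium, which held epidermal growth factor (EGF), hydrocortisone, triiodothyronine and an insulin, transferrin and selenium supplement. The series' design text calls the control group vehicle, while the sample labels call it untreated. No untreated culture at 24 h was analysed, so TGFβ1 and time in culture cannot be told apart, and no source used here gives the TGFβ1 dose. Of 11963 named genes, 4368 (36.5%) reached a log2 value of 4 on 3 or more of the 9 arrays and were tested.

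TGFβ1 is secreted in a latent form that is bound to proteins of the matrix, and once released it binds type II and type I receptor kinases. These phosphorylate SMAD2 and SMAD3, which enter the nucleus with SMAD4 and act there with other transcription factors, while SMAD7, SMURF ligases and PMEPA1 are induced and dampen the signal. In tubule epithelium the cytokine is known for loss of epithelial features, gain of contractile and migratory proteins, and deposition of matrix during kidney fibrosis.

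At 24 h of TGFβ1, 260 genes were higher and 241 were lower than in untreated cells. These 501 genes were 11.5% of those tested (5.95% higher and 5.52% lower; limma with the run in the model, Benjamini-Hochberg adjusted p below 0.05). A gene is said to have risen or fallen only where it passed this test, all differences are on the log2 scale, and errors are the standard error (SE) of the fit. A difference of 1 is a 2-fold change. Among the risen genes 93 changed at least 2-fold, 18 at least 4-fold and 2 at least 8-fold, and among the fallen genes 95, 12 and 4 did. The remaining 313 (62.5%) changed by less than 2-fold. Without the run in the model 210 genes passed (4.81%), 115 higher and 95 lower, and all of them were among the 501. Without the 24 h array of run 3, 142 rose and 129 fell, and without that of run 2 the numbers were 139 and 155.

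The risen genes had lower untreated signals than the fallen ones, where a signal depends on the probes as well as on the transcript. Their median untreated log2 value was 5.26, against 6.82 for the fallen genes and 6.35 for all tested genes. At 24 h the order was reversed, with medians of 6.3 for the risen and 5.86 for the fallen genes. Among the 1092 genes with the lowest untreated levels 113 rose and 33 fell, and among the 1092 with the highest 35 rose and 69 fell. Genes of low untreated level could pass the filter through the treated arrays, and a decrease from a low level is limited by the background, so the first of these pairs of counts follows in part from the filter. The untreated level is also subtracted in the difference that defines a rise or a fall. The untreated medians and both pairs of counts therefore follow in part from that definition. The median difference of all tested genes was 0.015 and the middle 90% lay between −0.63 and 0.6. In bulk RNA, fewer cells of a type and less RNA per cell cannot be told apart.

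**Figure D1:**
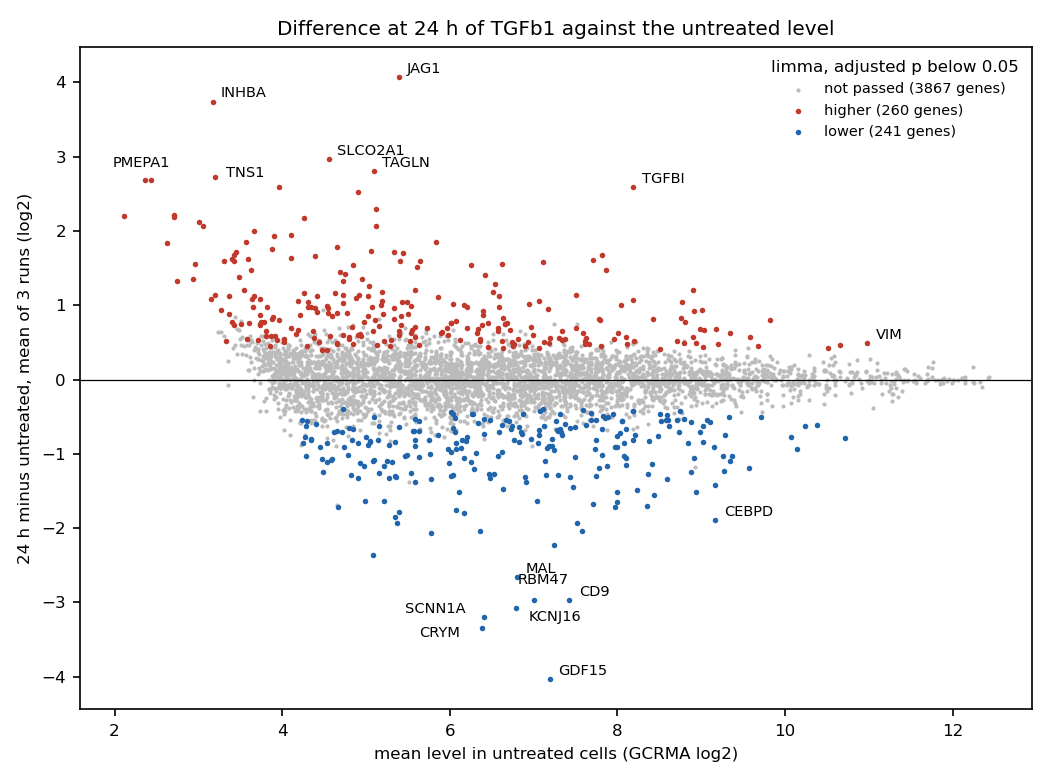
Mean difference of 24 h against untreated cells (vertical axis, log2) against the mean untreated level (horizontal axis, GCRMA log2) for the 4368 tested genes, with genes higher in red, lower in blue and not passed in grey. JAG1 and GDF15 lie farthest from 0, and the red points are densest at low untreated levels, where 113 of the 260 are among the 1092 genes of lowest untreated level.

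Most markers listed for the adult proximal tubule read near background at both times. The list is short, and PDZK1IP1, a membrane protein of proximal tubule cells outside it, read 7.51 to 7.9 in untreated cells. Of 9 proximal tubule markers on the array, PAX8 alone exceeded a log2 value of 4, while the endocytic receptor gene LRP2 lay between 1.24 and 1.71 and CUBN between 1.33 and 1.64 on the 6 arrays. The epithelial genes KRT8, KRT18 and EPCAM were bright in both groups. E-cadherin (CDH1) lay between 0.94 and 1.42 on all 6 arrays, near background, so its course could not be read here. None of the endothelial, leukocyte, distal nephron or podocyte markers on the array reached 4, and of 6 fibroblast markers only LUM did. The mean log2 value over the fibroblast list ran from 2.46 to 2.73 in untreated cells and from 2.63 to 2.95 at 24 h. Of that list COL1A1, named after its values were seen, went from 2.18, 1.51 and 1.49 to 2.98, 3.07 and 3.18 with no overlap, while COL3A1 and PDGFRB lay below 2 on all 6 arrays, and the part of such cells in the results was not tested.

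JAG1, which encodes a membrane ligand of Notch receptors, showed the largest rise. Its log2 values were 5.72, 4.46 and 5.99 in untreated cells of runs 1, 2 and 3 and 9.47, 9.01 and 9.92 at 24 h. Every 24 h array was far above every untreated array, and run 2 was lowest in both groups. The difference was 4.07 ± 0.17, or 16.8-fold (adjusted p = 9.1e-06), and the 3 bright probe sets of the gene gave 3.9, 4.07 and 4.82. HES1, a transcriptional repressor and Notch target, read 3.42, 2.77 and 2.95 before treatment and 5.18, 5.09 and 5.09 after it. It moved from near background to a narrow range with no overlap, by 2.07 ± 0.16 (adjusted p = 0.000191).

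INHBA, which encodes the chain that forms activin A, a ligand of the TGF-beta family, was near background in untreated cells, at 3.35, 3.12 and 3.04. At 24 h it read 7.75, 6.5 and 6.5, a difference of 3.74 ± 0.22 (adjusted p = 3.77e-05), with run 1 the highest. The prostaglandin transporter gene SLCO2A1 went from 4.94, 4.39 and 4.37 to 7.48, 7.52 and 7.6, the tightest 24 h values among the 4 largest rises, a difference of 2.97 ± 0.15 (adjusted p = 1.63e-05). TAGLN, an actin-binding protein of contractile cells, went from 5.27, 5.51 and 4.48 to 7.51, 7.79 and 8.38. The groups did not overlap, but the rise differed by run, since run 3 was lowest before and highest after treatment (2.81 ± 0.30, adjusted p = 0.000678).

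The next largest rises were in genes of adhesion, feedback and secretion. TNS1, a protein of focal adhesions, rose from 2.96, 2.84 and 3.81 to 5.43, 5.8 and 6.54, by 2.72 ± 0.13 (adjusted p = 1.35e-05). IL11, a cytokine of the IL-6 family, rose from 2.03, 2.42 and 2.62 to 5.26, 4.62 and 5.22, by 2.68 ± 0.19 (adjusted p = 0.000126). TP53I3, a p53 target that encodes a quinone oxidoreductase, rose from 4.01, 4.42 and 3.44 to 6.57, 7 and 6.07, by 2.59 ± 0.10 (adjusted p = 7.36e-06). Its rises within the 3 runs were nearly equal. TGFBI, a secreted matrix protein, was bright from the start and rose from 7.9, 8.05 and 8.61 to 10.55, 10.55 and 11.2, by 2.59 ± 0.12 (adjusted p = 1.35e-05).

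The LIM domain gene LMCD1 rose by 2.53, the interstitial collagenase gene MMP1 by 2.29, the sphingosine kinase gene SPHK1 by 2.22 and the non-canonical WNT ligand genes WNT5A and WNT5B by 2.2 and 1.95. GALNT10, an enzyme that starts O-linked glycans, rose by 2.18, MMP9, a gelatinase, by 2.12 and the transcription factor gene SNAI2, a repressor of epithelial genes, by 2. Across these 8 genes the adjusted p ran from 6.61e-05 for MMP1 to 0.00474 for MMP9. SNAI2 read 4.05, 3.37 and 3.57 in untreated cells and 5.3, 6.09 and 5.59 at 24 h, with no overlap. TNFAIP6, a hyaluronan-binding protein, rose by 2.06 ± 0.15 (adjusted p = 0.000126), and its levels in the 3 runs lay so far apart that it did not pass without the run in the model (adjusted p = 0.0764). None of the 20 largest rises lost its call when any 1 array was left out, while MMP9 lost it without all arrays of run 1 (adjusted p = 0.0577) or of run 3 (adjusted p = 0.0543).

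GDF15, a distant TGF-beta relative secreted under cell stress, showed the largest fall. It read 6.93, 7.96 and 6.69 in untreated cells and 2.56, 3.91 and 3.01 at 24 h. All 3 treated arrays were below a log2 value of 4 and run 2 was the highest of both groups. The fall was 16.4-fold (−4.03 ± 0.17, adjusted p = 1.05e-05). CRYM, which encodes a cytosolic protein that binds thyroid hormone, read 7.36, 6.38 and 5.4 before and 3.69, 2.89 and 2.5 after treatment (−3.35 ± 0.19, adjusted p = 2.72e-05). Its untreated values were widely spread, and the runs kept their order after treatment.

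Genes listed for the apical membrane and vectorial transport were among the largest falls. SCNN1A, a pore subunit of the amiloride-sensitive sodium channel ENaC, went from 6.11, 6.89 and 6.22 to 2.75, 3.92 and 2.97 (−3.20 ± 0.16, adjusted p = 1.35e-05). KCNJ16, an inwardly rectifying potassium channel of tubule epithelium, went from 7.58, 6.03 and 6.76 to 4.52, 2.98 and 3.61 (−3.08 ± 0.11, adjusted p = 7.36e-06). MAL, a protein of apical sorting, went from 6.39, 7.43 and 6.57 to 3.88, 4.13 and 4.4 (−2.66 ± 0.24, adjusted p = 0.000359). In none of these 3 genes did a treated array reach an untreated one.

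CD9, a tetraspanin of the cell surface, went from 7.21, 7.6 and 7.46 to 4.31, 4.86 and 4.19 (−2.97 ± 0.13, adjusted p = 1.25e-05), and the RNA-binding protein gene RBM47 from 7.17, 6.36 and 7.49 to 4.45, 3.84 and 3.84 (−2.97 ± 0.20, adjusted p = 8.85e-05). Both had the groups well apart. VCAM1, an adhesion molecule for leukocytes, fell by 2.36, the inositol monophosphatase gene IMPA2 by 2.23, the antigen-loading gene HLA-DMB by 2.06, MEGF9 by 2.04 and GSE1 by 2.04. CEBPD, a transcription factor of acute responses, was bright and fell by 1.89 ± 0.10 from 9.21, 8.86 and 9.45 to 7.38, 6.91 and 7.56 (adjusted p = 2.29e-05). The lipid genes ACSL1, which activates fatty acids, and PLIN2, which coats lipid droplets, fell by 1.85 and 1.71. PCCA, a subunit of propionyl-CoA carboxylase, fell by 1.78, and the cell death receptor gene FAS fell by 1.76, with all 4 of its bright probe sets between −1.24 and −1.94. FLRT3 fell by 1.93 (adjusted p = 0.00661; 0.0537 without the run in the model). The 20 largest falls all kept their calls when any 1 array was left out.

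**Figure D2:**
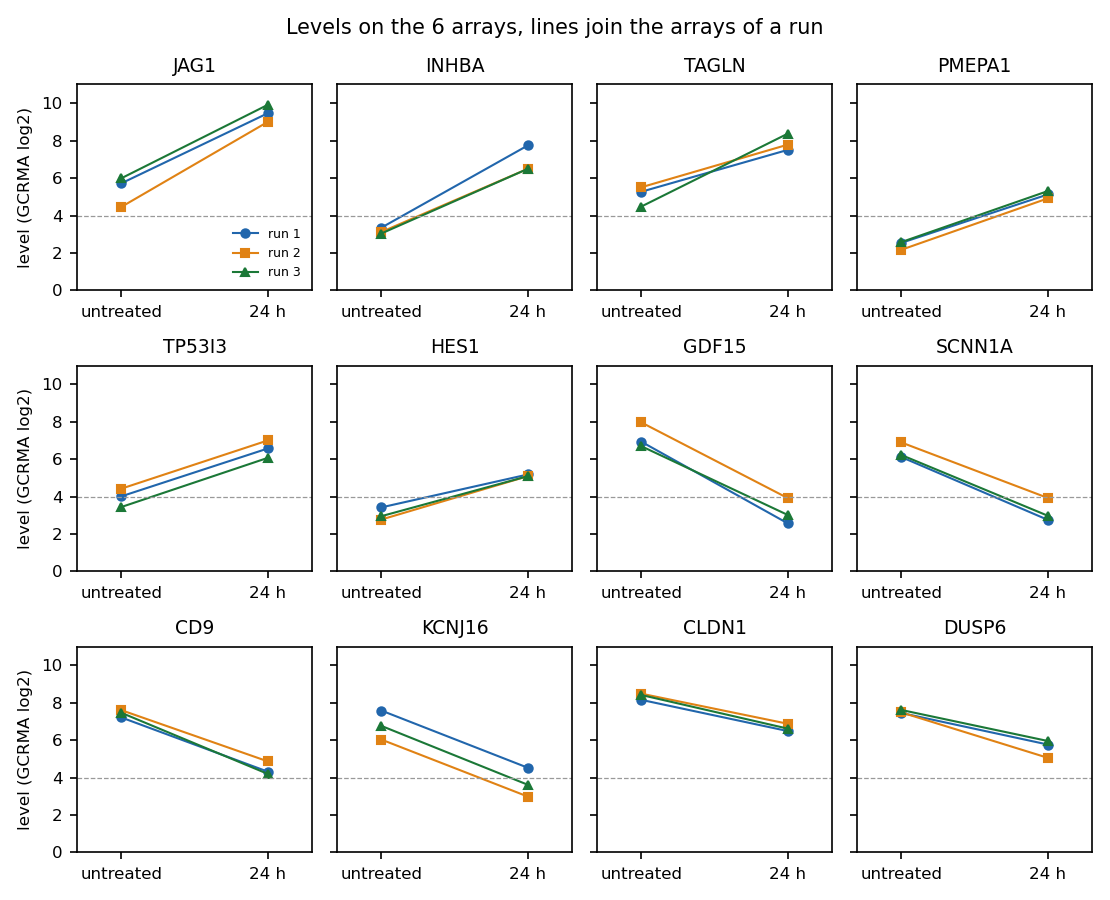
GCRMA log2 level of selected genes on each of the 6 arrays, untreated and 24 h, with lines joining the arrays of a run. In each gene drawn that passed the test, all 3 lines run in the same direction, and JAG1, INHBA and GDF15 have the steepest.

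Among ligands of the TGF-beta family the directions were mixed. Of 10 ligand genes listed 3 were bright enough to be tested, of which INHBA and TGFB1 rose and GDF15 fell. Over all tested genes 5.95% were higher and 5.52% lower. INHBA was below 4 on every untreated array and GDF15 on every 24 h array. Each passed the filter only through arrays on which it was high, so these 2 directions are a description. TGFB1 itself read 4.98, 5.72 and 4.87 before and 6.05, 6.43 and 6.63 after treatment, with no overlap (1.18 ± 0.26, adjusted p = 0.0219). That call was lost without the untreated array of run 1 or 3 or the 24 h array of run 2 or 3 (adjusted p up to 0.107). Of 3 tested receptors, the activin type I receptor gene ACVR1B fell from 8.1, 8.01 and 8.58 to 6.58, 6.9 and 6.77 (−1.48 ± 0.15, adjusted p = 0.000606). Every treated array of ACVR1B was at least 1 log2 unit below the lowest untreated one. The type II receptor gene TGFBR2 did not pass (−0.38 ± 0.13, adjusted p = 0.103), and TGFBR1 was near background, between 0.75 and 1.13.

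Some inhibitors of the pathway rose. Of 7 tested genes of negative feedback 4 rose and none fell by adjusted p or by unadjusted p, with a median difference of 0.77, against 5.95% higher and 5.52% lower over all tested genes. PMEPA1, FSTL3 and SMURF1 were below 4 on every untreated array and passed the filter only through treated arrays, so they had to be higher there and the count and median are tilted upward. TGIF1, RNF111 and PPM1A had differences of −0.28, 0.31 and −0.05 and did not pass. PMEPA1, which sequesters receptor-activated SMADs, rose from 2.54, 2.17 and 2.58 to 5.13, 4.92 and 5.31 (2.69 ± 0.13, adjusted p = 1.35e-05). FSTL3, a secreted protein that binds activins, rose from 2.94, 2.85 and 2.33 to 4.69, 4.87 and 5.12 (2.19 ± 0.18, adjusted p = 0.00025), so the activin chain and an activin antagonist were both higher in the same samples. SMURF2, a ubiquitin ligase of receptors and SMADs, rose by 1 ± 0.11 (adjusted p = 0.000901). Its relative SMURF1 rose by 0.77 (adjusted p = 0.0324; 0.0852 without the run in the model) and lost the call without any 1 of 5 arrays, all but the untreated array of run 3 (adjusted p up to 0.149).

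SMAD7, the inhibitory SMAD, was the only 1 of 6 tested SMADs and cofactors that passed. It read 4.02, 4.07 and 2.67 before and 5.09, 5.41 and 5.11 after treatment (1.62 ± 0.30, adjusted p = 0.0102), a rise that was largest in run 3, where the untreated value was low, and the call was lost without the 24 h array of run 3 (adjusted p = 0.0617). SMAD1, SMAD2 and SMAD4 had differences of 0.14, −0.19 and 0.2 and did not pass. ID1, a target of bone morphogenetic protein signalling, rose from 8.17, 7.89 and 7.82 to 8.62, 8.21 and 8.72 (0.55 ± 0.14, adjusted p = 0.0358). It did not pass without the run in the model (adjusted p = 0.192) or without any 1 of 5 arrays, all but the untreated array of run 2 (adjusted p up to 0.157). BMP2, the BMP ligand tested, had a difference of 0.04.

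A list for latent TGF-beta binding and activation also holds fibrillins and members of the latent TGF-beta binding protein family, included by name. Of its 5 tested genes 3 rose and none fell (4 higher and 0 lower by unadjusted p). The median difference was 1.13, against 5.95% higher and 5.52% lower over all genes. FBN1 was below 4 on every untreated array and passed the filter only through treated arrays. THBS1, an activator of the latent complex, rose from 5.04, 5.7 and 6.18 to 6.52, 7.91 and 7.26 (1.59 ± 0.24, adjusted p = 0.00424). FBN1, the microfibril protein to which latent complexes attach, rose by 1.59 ± 0.22 (adjusted p = 0.0025), and LTBP2, a member of the latent TGF-beta binding protein family, rose by 1.13 ± 0.11 (adjusted p = 0.000478). In all 3 genes the arrays of the groups did not overlap. The integrin chain gene ITGAV (0.52, adjusted p = 0.0536) and FBN2 (0.21, adjusted p = 0.421) did not pass.

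Targets of serum response factor (SRF) and its actin-regulated coactivators passed the test upward only. Of 18 tested, 9 rose and none fell (15 higher and 1 lower by unadjusted p), against 5.95% and 5.52% of all tested genes, and the list's median was 0.48. TUFT1 read 4.93, 5.69 and 5.38 before and 6.82, 7.18 and 7.12 after treatment (1.71 ± 0.13, adjusted p = 0.000177). MYL9, the regulatory light chain of non-muscle and smooth muscle myosin, rose from 7.17, 7.58 and 6.45 to 7.93, 8.3 and 8.15 (1.06 ± 0.19, adjusted p = 0.00947). ZYX, the LIM protein zyxin of stress fibres, rose from 5.95, 6.56 and 6.13 to 6.87, 7.43 and 7.26 (0.97 ± 0.11, adjusted p = 0.00105). The groups were apart in all of these, with run 2 high in each, and neither MYL9 (adjusted p = 0.0663) nor ZYX (adjusted p = 0.0579) passed without the run in the model.

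SRF and its target gene TPM4, a tropomyosin, were looked at because their promoters hold the SRF binding motif, the CArG box, and were named after their values were seen, as was AKAP12, a scaffold protein. SRF rose by 0.51 ± 0.14 (adjusted p = 0.049), from 4.37, 4.9 and 4.04 to 4.86, 5.19 and 4.79. Its groups overlapped, it did not pass without the run in the model (adjusted p = 0.306), and the call was lost without any 1 of 5 arrays, all but the untreated array of run 2 (adjusted p up to 0.192). TPM4 rose from 7.66, 7.37 and 7.75 to 8.4, 8.16 and 8.1 (0.63 ± 0.13, adjusted p = 0.0195), a call lost without the untreated or the 24 h array of run 1 or 2 (adjusted p up to 0.0948). AKAP12 rose from 6.02, 6.15 and 6.57 to 8.02, 7.43 and 7.92 (1.54 ± 0.16, adjusted p = 0.000632).

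The 250 bases before the annotated start of 4 risen genes with a CArG box are shown because these genes belong to different groups of the response: SRF itself, the tropomyosin TPM4, the activin antagonist FSTL3 and the potassium channel KCNK3. The sequences are from RefSeq (GRCh38.p14), are written 5′ to 3′ on the strand of the gene, and have the CArG box in capitals. All 4 lie on the plus strand: SRF at chr6:43171019-43171268, TPM4 at chr19:16067288-16067537, FSTL3 at chr19:676142-676391 and KCNK3 at chr2:26692472-26692721.
SRF: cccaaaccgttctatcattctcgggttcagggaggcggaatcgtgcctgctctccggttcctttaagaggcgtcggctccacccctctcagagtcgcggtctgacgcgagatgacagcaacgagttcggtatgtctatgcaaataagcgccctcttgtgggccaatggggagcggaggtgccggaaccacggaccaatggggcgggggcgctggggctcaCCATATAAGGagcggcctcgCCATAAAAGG
TPM4: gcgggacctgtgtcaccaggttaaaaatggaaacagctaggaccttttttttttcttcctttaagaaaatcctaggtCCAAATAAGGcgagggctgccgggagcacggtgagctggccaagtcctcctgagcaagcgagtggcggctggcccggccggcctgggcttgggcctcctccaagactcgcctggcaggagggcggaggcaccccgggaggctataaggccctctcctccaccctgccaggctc
FSTL3: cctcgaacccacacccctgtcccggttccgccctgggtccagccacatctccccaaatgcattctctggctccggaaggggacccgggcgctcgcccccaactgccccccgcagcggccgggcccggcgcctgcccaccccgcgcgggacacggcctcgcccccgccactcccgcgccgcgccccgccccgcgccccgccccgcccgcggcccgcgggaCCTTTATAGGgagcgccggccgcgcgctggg
KCNK3: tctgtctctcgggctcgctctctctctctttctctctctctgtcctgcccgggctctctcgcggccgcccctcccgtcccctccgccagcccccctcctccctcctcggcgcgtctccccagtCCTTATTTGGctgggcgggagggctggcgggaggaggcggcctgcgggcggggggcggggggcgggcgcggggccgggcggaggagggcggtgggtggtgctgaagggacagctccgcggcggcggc

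SRF held 2 CArG boxes whose first bases lay 30 and 10 bases before the start, FSTL3 held 1 at 31, KCNK3 1 at 127 and TPM4 1 at 173. In windows of 300 bases (250 before and 50 after the start), a CArG box stood in 7 of 221 risen genes (3.17%), in 1 of 196 fallen genes (0.51%), in 48 of 3714 tested genes (1.29%) and in 351 of 27305 RefSeq promoters (1.29%). The other risen genes were AKAP12, JPT1 (0.49) and RSU1 (0.76), and the fallen one was the myosin light chain kinase gene MYLK (−0.76). Shorter motifs were searched on both strands in the same windows. The SMAD box CAGACA stood in 15.8% of risen, 12.8% of fallen and 11.1% of tested promoters, and in 16.8% of all RefSeq promoters. The AP-1 motif TGANTCA stood in 6.79%, 5.1% and 4.5%, and in 7.76% of all RefSeq promoters. The palindrome GTCTAGAC stood in 0 risen and 0 fallen promoters and 4 of those tested. CACCTG, the E-box of SNAI and ZEB repressors, stood in 16.7%, 17.9% and 15.6%, and in 20.6% of all RefSeq promoters. The TATA motif TATAAA stood in 8.6% of risen, 10.7% of fallen and 5.65% of tested promoters, and in 12% of all RefSeq promoters. A match is a description of these letters and was not tested as a binding site.

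Genes of focal adhesions and LIM domain proteins rose more often than they fell. Of 23 tested, 6 rose and 1 fell, against 5.95% and 5.52% of all tested genes, and the median difference was 0.34 against 0.015. TNS1 was below 4 on every untreated array and passed the filter only through treated arrays, so the count is tilted upward. Besides TNS1 and LMCD1, PDLIM7, a LIM protein of actin filaments, rose from 4.86, 5.26 and 5 to 5.84, 6.73 and 6.33 (1.26 ± 0.13, adjusted p = 0.000703). NEDD9, a docking protein of adhesion signalling, rose by 1.06 (adjusted p = 0.0145; 0.2 without the run in the model), and lost its call without the untreated array of run 1 or 3 or the 24 h array of run 3 (adjusted p up to 0.0668).

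Of 11 tested targets of the YAP and TEAD factors 3 rose and 1 fell, against 5.95% and 5.52% of all tested genes. The list's median was 0.17. F3, tissue factor, rose from 4.56, 4.67 and 5.28 to 6.41, 6.04 and 6.67 (1.54 ± 0.16, adjusted p = 0.000652). DLC1 rose from 6.36, 6.22 and 6.63 to 7.28, 7.32 and 7.2 (0.87 ± 0.13, adjusted p = 0.00355). Both had all treated arrays above all untreated ones. The membrane repair gene MYOF fell by 0.86 (adjusted p = 0.0212; 0.11 without the run in the model), a call lost without the 24 h array of run 2 or 3 (adjusted p up to 0.105).

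CCN2, the matricellular protein also called connective tissue growth factor, rose from 6.76, 7.03 and 5.75 to 7.39, 7.97 and 7.71. The groups did not overlap, and the low untreated value of run 3 gave that run the largest rise. The difference of 1.18 ± 0.24 passed with the run in the model (adjusted p = 0.0165) and not without it (adjusted p = 0.0885), nor without the untreated array of run 3 or the 24 h array of run 2 or 3 (adjusted p up to 0.0584). The 250 bases before its start (RefSeq, GRCh38.p14, chr6:131951373-131951622, minus strand, written 5′ to 3′ on that strand) are shown because they hold 3 copies of the TEAD motif GGAATG, in capitals, at 169, 104 and 95 bases before the start.
CCN2: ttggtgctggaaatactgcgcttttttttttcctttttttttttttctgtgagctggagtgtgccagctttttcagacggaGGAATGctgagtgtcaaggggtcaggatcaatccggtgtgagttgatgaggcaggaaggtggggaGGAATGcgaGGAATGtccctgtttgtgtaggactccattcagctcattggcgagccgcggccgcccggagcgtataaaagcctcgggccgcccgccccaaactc

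GGAATG on either strand stood in 13.1% of risen, 13.3% of fallen and 10.6% of tested promoters, and in 14% of all RefSeq promoters in the same windows.

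Collagen genes that were bright in these cells mostly rose. Of 32 chains on the array 5 were tested. Of these 4 rose and none fell, against 5.95% and 5.52% of all tested genes, and the median was 0.66. COL7A1, at 4, 3.75 and 3.72 in untreated cells, passed the filter only with its treated arrays. COL4A1 and COL4A2, the chains of basement membrane collagen, ran in parallel. COL4A1 went from 8.69, 8.55 and 9.05 to 9.51, 9.41 and 9.84 (0.83 ± 0.10, adjusted p = 0.00123), and COL4A2 from 8.91, 8.89 and 9.29 to 9.54, 9.63 and 9.9 (0.66 ± 0.10, adjusted p = 0.00433; 0.0561 without the run in the model). Run 3 was the highest in both groups for both genes. The genes lie head to head on chromosome 13, and the 126 bases between their starts are shown since 1 short stretch precedes both (RefSeq, GRCh38.p14, chr13:110307158-110307283, plus strand, the direction of COL4A2).
COL4A1 to COL4A2: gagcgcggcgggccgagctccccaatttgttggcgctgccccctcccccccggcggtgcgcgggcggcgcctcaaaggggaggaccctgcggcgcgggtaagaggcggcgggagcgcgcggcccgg

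COL7A1, the chain of anchoring fibrils, rose by 0.97 (adjusted p = 0.019; 0.0644 without the untreated array of run 3). COL6A1, a chain of microfibrillar collagen, rose by 0.5 (adjusted p = 0.0219), a call lost without the untreated or the 24 h array of run 2 or 3 (adjusted p up to 0.11). SPARC, a collagen-binding matricellular protein, rose from 7.9, 8.22 and 8.41 to 9, 9.24 and 9.51 (1.07 ± 0.11, adjusted p = 0.000606), almost equally in each run. Fibronectin (FN1) was near the top of the scale, at 10.74, 11.01 and 11.3 before and 11.23, 11.38 and 11.23 after treatment, with overlapping groups, and did not pass (0.27 ± 0.13, adjusted p = 0.234). Its 4 bright probe sets had differences of 0.27 to 0.35 and did not pass when every probe set was tested, while 2 dim ones, with untreated means of 3.21 and 3.32, rose by 0.86 and 1.55.

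Proteases of the matrix rose and fell. MMP1 read 5.36, 4.16 and 5.82 before and 7.58, 6.78 and 7.85 after treatment, with run 2 low in both groups (2.29 ± 0.15, adjusted p = 6.61e-05). ADAM19, a membrane metalloprotease, rose from 3.56, 3.72 and 3.01 to 5.25, 4.66 and 5.4 (1.67 ± 0.23, adjusted p = 0.00266), while ADAMTS3, which processes procollagen, fell from 7.85, 8 and 8.11 to 6.61, 6.13 and 6.27 (−1.65 ± 0.17, adjusted p = 0.000606). Neither tested TIMP, a family of metalloprotease inhibitors, passed in limma, and neither had an unadjusted p below 0.05. The tissue plasminogen activator gene PLAT fell by 0.74 ± 0.13 (adjusted p = 0.00788; 0.226 without the run in the model), and the protease inhibitor gene SERPINA1 fell by 1.09 ± 0.10 (adjusted p = 0.000446). CHST15, a sulfotransferase of chondroitin sulfate, was the only 1 of 8 tested enzymes of glycosaminoglycan synthesis to pass (1.12 ± 0.15, adjusted p = 0.00206; 0.0897 without the run in the model).

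Of 9 tested genes with integrin symbols, which include the integrin-binding proteins ITGB1BP1 and ITGB3BP, 2 rose and 1 fell. Over all tested genes 5.95% were higher and 5.52% lower. By unadjusted p 6 of the 9 were higher. ITGA3, the laminin receptor chain, fell by 0.8 ± 0.13 (adjusted p = 0.00561; 0.141 without the run in the model). ITGA5, the fibronectin receptor chain, rose from 4.68, 4.03 and 5.27 to 5.34, 5.56 and 5.77 (0.89 ± 0.21, adjusted p = 0.0268; 0.122 without the run in the model). Its call was lost without the untreated array of run 1 or the 24 h array of run 2 or 3 (adjusted p up to 0.126). ITGAE rose by 0.57 (adjusted p = 0.0177; 0.194 without the run in the model) and lost its call without the untreated array of run 3 or the 24 h array of run 2 or 3 (adjusted p up to 0.0888). None of 3 tested laminin chains passed in limma, with 1 higher by unadjusted p.

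Cell junction genes moved in both directions. CLDN1, a tight junction strand protein, fell from 8.15, 8.48 and 8.41 to 6.48, 6.87 and 6.61 (−1.70 ± 0.11, adjusted p = 6.61e-05), and EPCAM, an epithelial adhesion molecule, fell from 8.22, 8.24 and 8.63 to 7.15, 7.07 and 7.07 (−1.27 ± 0.13, adjusted p = 0.000607). CDH2, N-cadherin, rose from 6.38, 5.87 and 7.02 to 8.05, 7.45 and 7.98 (1.41 ± 0.18, adjusted p = 0.00207). All 3 had separate groups. The desmosomal gene DSP rose as well, from 3.11, 3.22 and 3.75 to 4.39, 4.18 and 4.92 (1.13 ± 0.13, adjusted p = 0.00099; 0.0722 without the run in the model), although it is an epithelial junction gene. Of the 8 tested genes of this list 2 rose and 2 fell, against 5.95% and 5.52% of all tested genes. The list's median was 0.29, and DSP passed the filter only through treated arrays. The tight junction scaffold gene TJP1 had a difference of 0.41 and did not pass.

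Intermediate filament genes changed less. Vimentin (VIM) was already bright before treatment, at 10.85, 10.88 and 11.22, and read 11.26, 11.47 and 11.69 at 24 h. The rise of 0.49 ± 0.11 (adjusted p = 0.0269) was 1.4-fold, did not pass without the run in the model (adjusted p = 0.153), and lost its call without any 1 of 5 arrays, all but the 24 h array of run 1 (adjusted p up to 0.149). The simple epithelial keratin gene KRT8 rose by 0.65 (adjusted p = 0.0123; 0.064 without the run in the model and 0.0585 without the 24 h array of run 3). Its partner KRT18 had a difference of 0.14 and did not pass.

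Of 14 tested genes of the apical membrane and of vectorial transport 7 fell and none rose (8 lower and 1 higher by unadjusted p). Over all tested genes 5.52% were lower and 5.95% higher, and the list's median was −0.57. SCNN1A was below 4 on every 24 h array and passed the filter only with its untreated arrays, so the count is tilted downward. Beside SCNN1A, KCNJ16 and MAL, PDZK1IP1, a membrane protein of proximal tubule cells, fell from 7.71, 7.51 and 7.9 to 6.1, 5.57 and 6.45 (−1.67 ± 0.19, adjusted p = 0.00104). PDZK1, the scaffold of apical transporters, fell from 5.96, 5.45 and 6.91 to 5.06, 3.63 and 5.06 (−1.52 ± 0.19, adjusted p = 0.00151; 0.153 without the run in the model). FXYD2, the gamma subunit of the sodium pump, fell from 9.5, 9.34 and 9.28 to 8.44, 8.18 and 8.41 (−1.03 ± 0.12, adjusted p = 0.00114). PDZK1 and FXYD2 were named after their values were seen. ATP1B1, the beta subunit of the same pump, fell by 0.78 (adjusted p = 0.0161), a call lost without the 24 h array of run 2 or 3 (adjusted p up to 0.0799), whereas the beta subunit gene ATP1B3 had a difference of −0.03 and did not pass.

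**Figure D3:**
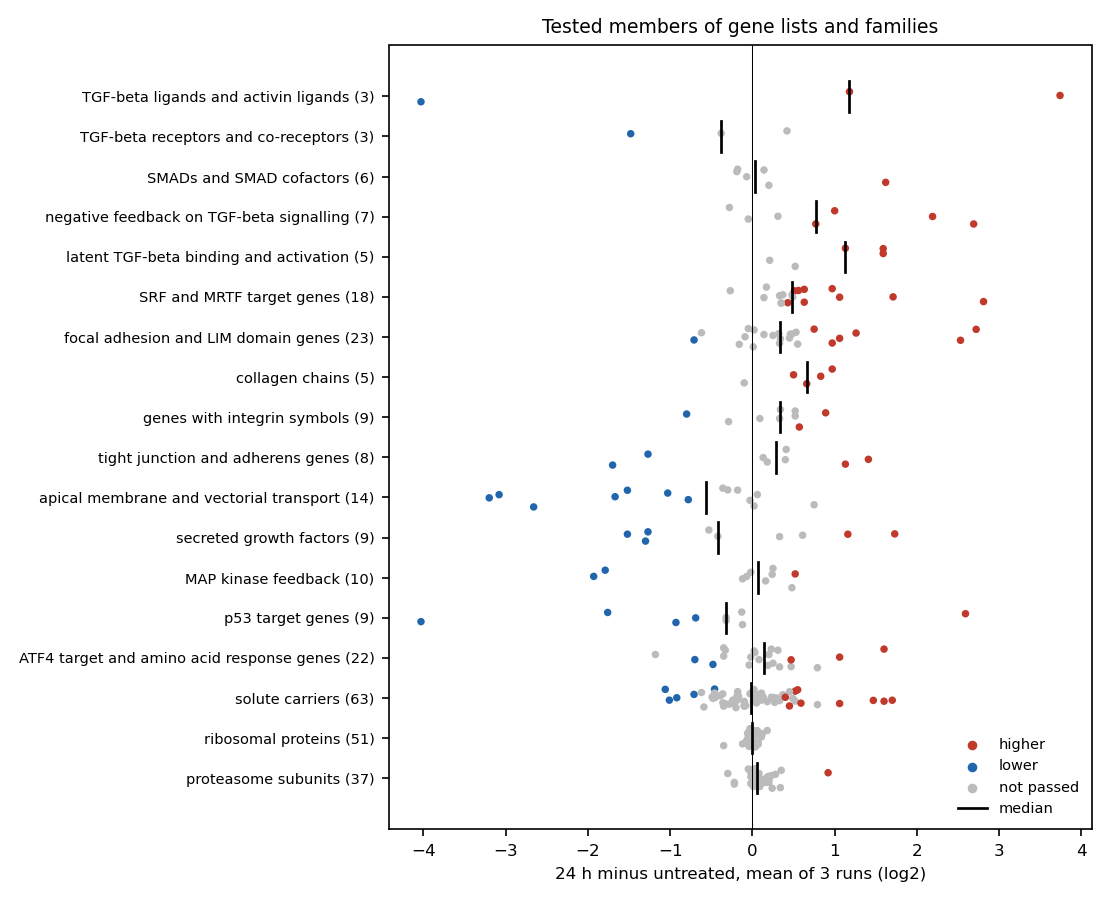
Differences of the tested members of the main gene lists (horizontal axis, log2, 24 h minus untreated, mean of 3 runs), with 1 row per list, points for genes and a bar for each list's median. The SRF target list lies mainly to the right of 0 (median 0.48) and the list of apical membrane and vectorial transport to the left (median −0.57).

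The kidney lineage factor PAX8 fell by little, and evenly on the probe set that stood for it, from 7.36, 7.39 and 7.34 to 6.76, 6.83 and 6.7 (−0.60 ± 0.10, adjusted p = 0.0075). Of its 6 probe sets 3 passed when every set was tested, at −0.6, −0.85 and −0.62, and 3 did not, at −0.14, −0.77 and −0.34. SALL1, a factor of nephron progenitors, fell from 5.04, 4.88 and 6 to 4.15, 4.6 and 3.86 (−1.11 ± 0.30, adjusted p = 0.0489; 0.0712 without the run in the model). The call of SALL1 was lost without the untreated or the 24 h array of run 1 or 3 (adjusted p up to 0.19). Other transcription factor families moved in few members: KLF7 rose by 1.33 ± 0.11 (adjusted p = 0.000258) among 5 Kruppel-like factors and FOXD1 by 1.05 ± 0.17 (adjusted p = 0.00561; 0.0943 without the run in the model) among 7 forkhead factors, of which FOXO3 fell by 0.86 (adjusted p = 0.0367; 0.095 without the run in the model). The call of FOXO3 was lost without the untreated array of run 1 or 3 or the 24 h array of run 2 or 3 (adjusted p up to 0.159). KLF7 was below 4 on every untreated array and passed the filter only through treated arrays. FOXD1, at 3.84 on the untreated array of run 1, also needed treated arrays, and FOXO3 was below 4 on every 24 h array. Over all tested genes 5.95% were higher and 5.52% lower. None of 3 tested HOX and 2 SOX factors passed in limma, with 0 and 1 of them higher by unadjusted p. A dimmer probe set of SOX9, with an untreated mean of 3.44, passed when every set was tested (0.8, adjusted p = 0.00459).

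Growth factors that act on EGF receptors moved in opposite directions. TGFA fell from 8.86, 8.73 and 9.22 to 7.2, 7.13 and 7.92 (−1.52 ± 0.14, adjusted p = 0.000394). EREG fell from 8.07, 7.06 and 8.13 to 6.68, 6.82 and 5.85 (−1.30 ± 0.31, adjusted p = 0.0301; 0.062 without the run in the model), a call lost without the untreated or the 24 h array of run 1 or 3 (adjusted p up to 0.115). HBEGF, named after its values were seen, rose from 4.5, 5.2 and 4.2 to 5.65, 5.68 and 6.07 (1.16 ± 0.24, adjusted p = 0.0166), a call lost without the untreated array of run 1 or 3 or the 24 h array of run 3 (adjusted p up to 0.0736). The medium held EGF in every group.

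The phosphatase genes DUSP6 and DUSP5, which are induced by ERK signalling and inactivate ERK, both fell. DUSP6 went from 7.45, 7.48 and 7.61 to 5.76, 5.05 and 5.95 (−1.93 ± 0.16, adjusted p = 0.000231) and DUSP5 from 6.2, 6.46 and 5.85 to 4.2, 4.47 and 4.47 (−1.79 ± 0.22, adjusted p = 0.0015). The treated values of DUSP5 lay within 0.3 log2 units of each other, and neither gene's groups overlapped. The other 7 tested DUSP genes did not pass, and SPRY2, another feedback inhibitor, had a difference of 0.16. In the feedback list as a whole 2 of 10 fell and 1 rose, against 5.52% lower and 5.95% higher over all tested genes. The risen gene was IER3 (0.52, adjusted p = 0.0252). Its call was lost without the untreated array of run 1 or 3 or the 24 h array of run 2 or 3 (adjusted p up to 0.116).

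Other secreted factors moved as well. VEGFC, a growth factor of lymphatic vessels, rose from 5.07, 5.03 and 5.09 to 6.8, 6.52 and 7.06 (1.73 ± 0.16, adjusted p = 0.000394), while BDNF, a neurotrophin, fell from 6.48, 6.63 and 6.31 to 5.13, 5.44 and 5.05 (−1.27 ± 0.13, adjusted p = 0.000649). Both had tight groups far apart. IL15 rose by 1.32 ± 0.18 (adjusted p = 0.00275) and the chemokine gene CXCL5 by 1.14 (adjusted p = 0.0221), the latter lost without the untreated array of run 1 or 3 or the 24 h array of run 3 (adjusted p up to 0.107). IL18, a cytokine of epithelial cells, fell by 0.92 (adjusted p = 0.0179; 0.075 without the 24 h array of run 3). IL6, the receptor subunit gene IL6ST and LIF, of the same family as IL11, had differences of −0.12, −0.38 and 0.49 and did not pass. Among guidance genes the ephrin gene EFNB2 rose by 0.96 ± 0.12 (adjusted p = 0.00192) and the semaphorin gene SEMA3C by 0.69 ± 0.11 (adjusted p = 0.00553; 0.121 without the run in the model). Of 6 tested semaphorins, plexins and neuropilins 2 rose and 2 fell, against 5.95% and 5.52% of all tested genes. The neuropilin gene NRP1 fell by 1.31 (adjusted p = 0.0335; 0.091 without the run in the model), a call lost without the untreated or the 24 h array of run 2 or 3 (adjusted p up to 0.146). The plexin genes PLXND1 (0.48) and PLXNB2 (−0.47) passed by less (adjusted p = 0.0179 and 0.0296; 0.296 and 0.147 without the run in the model). PLXND1 lost its call without the untreated array of run 1 or 2 or the 24 h array of run 2 or 3 (adjusted p up to 0.0916), and PLXNB2 without any 1 of the 6 arrays (adjusted p up to 0.122).

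Targets of p53 fell more often than they rose: of 9 tested, 4 fell and 1 rose, with a median of −0.32, against 5.52% lower and 5.95% higher over all genes. GDF15 was below 4 on every 24 h array and passed the filter only with its untreated arrays, so the count is tilted downward. GDF15 and FAS fell as described. CDKN1A, the cell cycle inhibitor p21, fell from 5.93, 5.86 and 6.44 to 4.69, 5.05 and 5.69 (−0.93 ± 0.16, adjusted p = 0.00773; 0.103 without the run in the model), and CDKN1C, the related inhibitor p57, from 5.65, 5.56 and 6.12 to 4.34, 4.03 and 4.94 (−1.34 ± 0.18, adjusted p = 0.00209). TP53I3 went against the other targets. CDKN2B, an inhibitor known as a TGF-beta target in other epithelia, was near background, between 1.55 and 1.82 on the 6 arrays. None of 6 tested MCM replication genes passed in limma (0 higher and 2 lower by unadjusted p).

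Amino acid transport and stress genes were split. SLC7A11, the cystine transporter, rose from 3.4, 3.53 and 3.35 to 5.49, 5.24 and 4.36 (1.60 ± 0.23, adjusted p = 0.00352), with run 3 the smallest rise. SLC7A5, the large neutral amino acid transporter, rose by 1.06 (adjusted p = 0.0259; 0.191 without the run in the model) and lost its call without the untreated array of run 1 or 3 or the 24 h array of run 2 or 3 (adjusted p up to 0.124). DDIT3, the stress factor CHOP, fell by 0.7 (adjusted p = 0.0358; 0.0728 without the run in the model), a call lost without any 1 of 5 arrays, all but the untreated array of run 3 (adjusted p up to 0.11). Of the 22 tested ATF4 targets and amino acid response genes 3 rose and 2 fell, against 5.95% and 5.52% of all tested genes. The list's median was 0.13, and ATF4 itself had a difference of 0.19. SLC7A11 was below 4 on every untreated array and passed the filter only through treated arrays. SLC7A5, below 4 on the untreated arrays of runs 1 and 3, also needed treated arrays to pass. DDIT3, below 4 on the 24 h arrays of runs 1 and 3, needed its untreated arrays.

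Of 63 tested solute carriers 9 rose and 5 fell, against 5.95% and 5.52% over all genes, and the median was −0.02. These are the genes with SLC symbols, which leave out the organic anion transporter SLCO2A1. Of those that rose, SLC7A11 was below 4 on every untreated array and passed the filter only through treated arrays. SLC29A1 and SLC7A5 were below 4 on the untreated arrays of runs 1 and 3 and also needed treated arrays to pass. The count of rises is thus tilted upward. The largest rise among the solute carriers was that of SLC26A2, a sulfate transporter, from 5.68, 5.83 and 4.8 to 7.73, 7.17 and 6.51 (1.70 ± 0.19, adjusted p = 0.000829). The nucleoside transporter gene SLC29A1 rose by 1.47 (adjusted p = 0.00989; 0.0531 without the 24 h array of run 3). The inositol transporter gene SLC5A3 fell by 1.06 (adjusted p = 0.0291; 0.301 without the run in the model), a call lost without any 1 of the untreated arrays or the 24 h array of run 3 (adjusted p up to 0.105). KCNK3, an acid-sensitive potassium channel, rose from 4.05, 4.17 and 3.47 to 5.47, 6.1 and 5.91 (1.93 ± 0.20, adjusted p = 0.000652) while KCNJ16 fell, and none of the other 5 tested potassium channel genes passed. Around the rise of SLCO2A1, the prostaglandin receptor gene PTGER2 fell by 0.88 ± 0.14 (adjusted p = 0.0059; 0.208 without the run in the model).

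Several smaller families had 1 or 2 members that moved alone, while 5.95% of all tested genes rose and 5.52% fell. Among 11 tetraspanins CD9 fell and TSPAN13 rose, from 7.62, 7.77 and 8.17 to 9.16, 9.16 and 9.66 (1.47 ± 0.12, adjusted p = 0.000208). Of 10 annexins ANXA1 fell by 1.19 ± 0.17 (adjusted p = 0.00294) and ANXA4 by 1.15 ± 0.10 (adjusted p = 0.000295), while the other 8 had differences between −0.24 and 0.27. HLA-DMB alone passed among 8 genes with HLA symbols, which include the pseudogene HLA-J and the antisense RNA HLA-F-AS1. Of 37 proteasome genes PSMD2 rose, by 0.92 ± 0.12 (adjusted p = 0.00243), and 3 were higher and 1 lower by unadjusted p. CLU, clusterin, fell by 1.27 ± 0.20 (adjusted p = 0.00521) and AKR1C3, a steroid and prostaglandin reductase, by 1.29 ± 0.21 (adjusted p = 0.00536; 0.136 without the run in the model).

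In other families no member passed. None of 51 tested genes named as ribosomal proteins passed in limma (0 higher and 1 lower by unadjusted p), their median was 0, and their differences ran from −0.35 to 0.18. None of 16 deubiquitinases of the USP family passed (1 higher and 1 lower by unadjusted p). Of 7 glutathione S-transferases none passed (1 and 1), nor did any of 7 cathepsins (2 and 1). CYP1B1, the cytochrome P450 gene tested, had a difference of −1.69 and did not pass (adjusted p = 0.0622; 1 lower by unadjusted p).

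CYP1B1 was 1 of only 3 genes with a difference of at least 2-fold that did not pass. It read 4.55, 3.94 and 5.48 before and 3.32, 3.57 and 1.99 after treatment. The glycolytic gene ENO2 (−1.38 ± 0.39, adjusted p = 0.0589) read 5.1, 5.21 and 6.23 before and 3.76, 2.81 and 5.82 after. The hypoxia and stress gene DDIT4 (−1.18 ± 0.32, adjusted p = 0.0515) read 8.54, 8.55 and 9.7 before and 7.5, 6.46 and 9.29 after. All 3 were lower at 24 h in every run, by very unequal amounts, and ENO2 and DDIT4 had overlapping groups.

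Some genes crossed the level of 4 that the filter used. On all 3 untreated arrays 31 genes were below 4 and on all 3 arrays at 24 h at or above it, INHBA, TNS1, PMEPA1, IL11, SPHK1, WNT5A, FSTL3 and MMP9 with the largest differences. In reverse 23 genes crossed, led by GDF15, CRYM, SCNN1A, VCAM1, HLA-DMB, ACSL1, PCCA and CA12. Such genes passed the filter only through the groups in which they were high, so these counts are a description. CA12, a membrane carbonic anhydrase, went from 5.24, 4.07 and 4.7 to 3, 2.01 and 3.87 (−1.71 ± 0.25, adjusted p = 0.00358; 0.0788 without the run in the model).

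The runs differed in the spread of their differences. The SD of the differences over all tested genes was 0.47, 0.52 and 0.6 in runs 1, 2 and 3, and 101, 126 and 146 genes were at least 2-fold higher and 85, 113 and 194 at least 2-fold lower. Run 3 thus held the most 2-fold changes, with more falls than rises. With 1 array per group in a run, a larger response and noisier arrays cannot be told apart. Across the 4368 genes the within-run differences correlated at 0.683 between runs 1 and 2, 0.585 between 1 and 3 and 0.638 between 2 and 3, where genes are not independent replicates. All 501 called genes moved the same way in the 3 runs, as did 44.8% of all tested genes. The groups did not overlap in 203 of the 260 risen and 187 of the 241 fallen genes, against 716 (16.4%) of all tested genes, 8.68% higher and 7.72% lower.

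**Figure D4:**
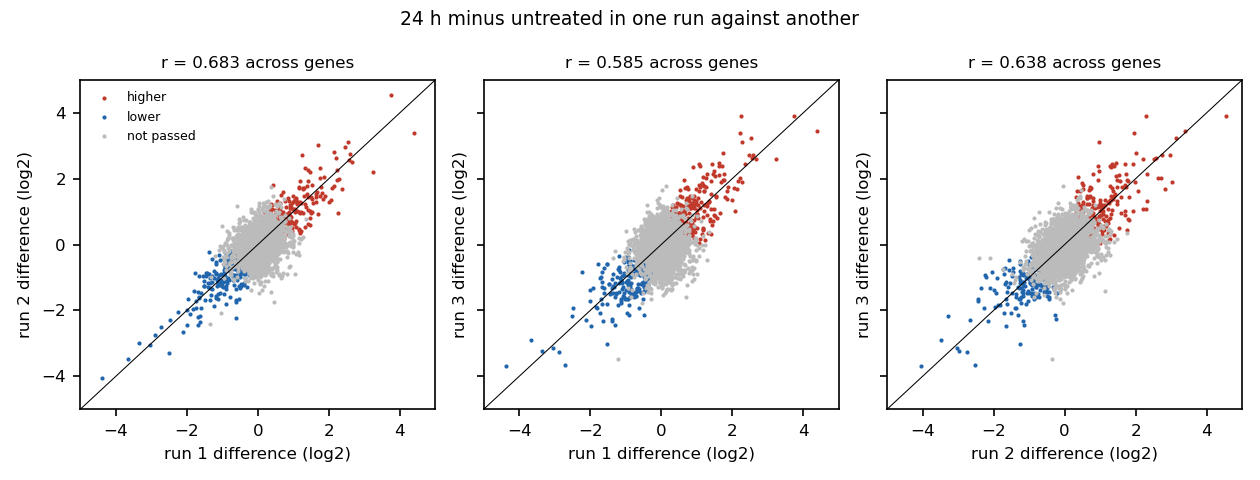
Within-run differences (24 h minus untreated, log2) of the tested genes in 1 run against another, with called genes coloured. The called genes lie in the quadrants of equal sign, and the points of all genes correlate at 0.585 to 0.683.

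Among called genes with at least a 2-fold change, the most even across runs were ANXA4, NPC1 and GBE1 (SD of the 3 differences 0.03 each) and SPARC and TP53I3 (0.04 each). NPC1, the lysosomal cholesterol transporter, went from 7.48, 6.87 and 7.98 to 6.14, 5.56 and 6.7 (−1.31 ± 0.15, adjusted p = 0.000861). GBE1, the glycogen branching enzyme, went from 8.21, 8.15 and 8.85 to 7.11, 6.98 and 7.7 (−1.14 ± 0.11, adjusted p = 0.000562). In both the levels moved up and down with the run while the fall stayed equal, and neither passed without the run in the model (adjusted p = 0.132 and 0.0802). The least even were MMP9 (SD 1.09), EREG (1.02), and TAGLN, FLRT3 and SALL1 (0.95 each). MMP9 read 2.68, 3.37 and 2.96 before and 4.95, 4.33 and 6.09 after treatment, so its rise was smallest in run 2 and largest in run 3.

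**Figure D5:**
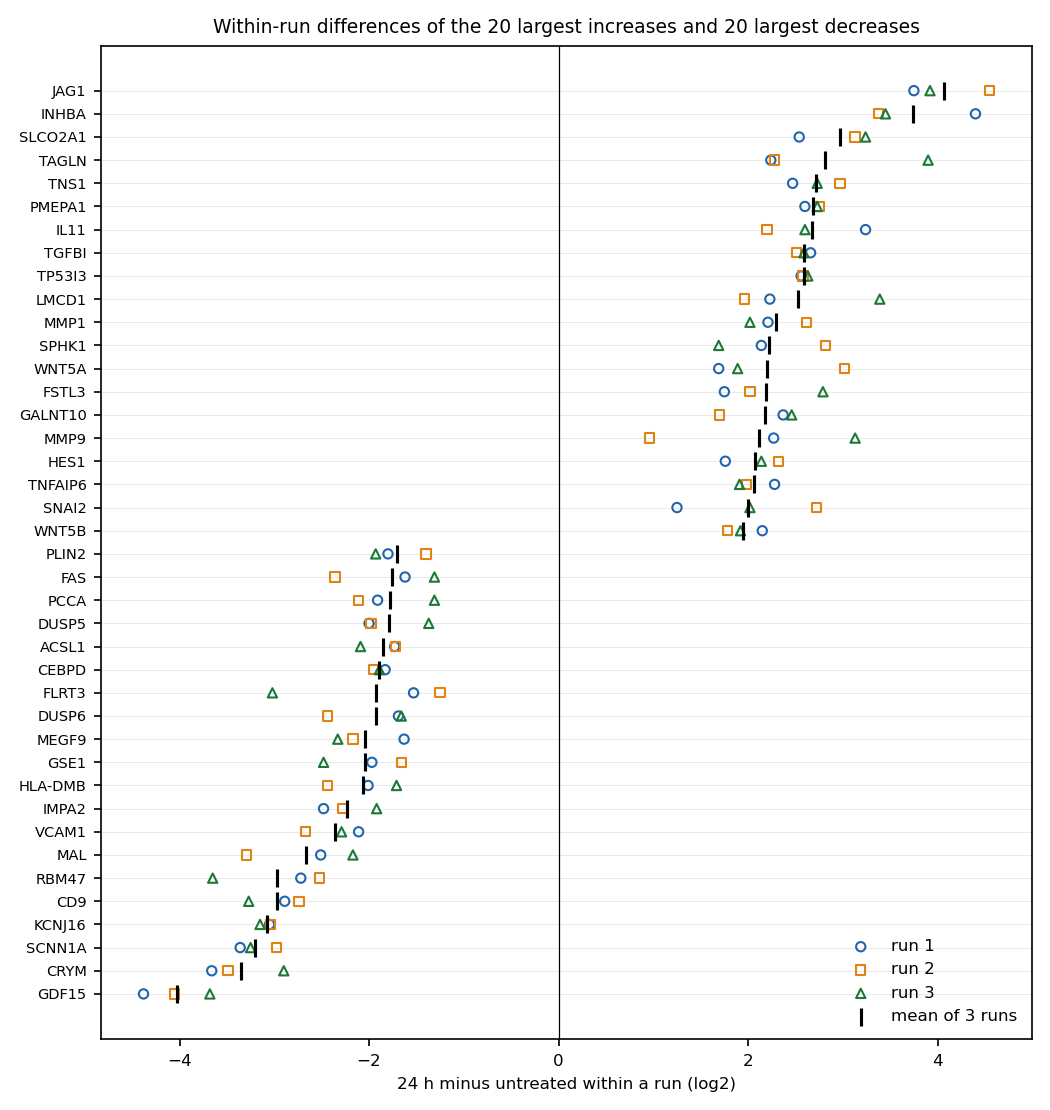
Within-run differences (log2, 24 h minus untreated) of the largest rises and falls, with 1 point per run and the mean as a bar. The points of TP53I3 and PMEPA1 lie close together, and those of TAGLN and MMP9 are spread.

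Genes with several probe sets allowed a comparison within the arrays. The set that gave the call was among those compared, and all sets read the same RNA. Of 122 called genes with more than 1 bright probe set, 119 had all sets moving in the same direction and 66 had every set past the threshold. The exceptions in sign were CFLAR, KPNA4 and PAFAH1B1, named after their values were seen. The share of equal sign over all 1125 genes with more than 1 bright probe set was not counted. Tested on their own, 639 of 5918 bright probe sets passed (10.8%). No gene had sets past the threshold in opposite directions in limma, and 2, SLC52A2 and UBE3A, had sets of opposite direction with an unadjusted p below 0.05. In 55 genes that were not called, another probe set passed.

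At 48 h the levels of the named genes were mostly close to those at 24 h. None of the 4368 genes passed between 48 h and 24 h in limma. An unadjusted p below 0.05 was found for 709 genes, against 1212 between 24 h and untreated cells. The lack of calls does not show that the levels were equal. JAG1 had a mean of 9.59 ± 0.46 (SD, n = 3) at 48 h, INHBA 6.93 ± 0.39, TGFBI 10.81 ± 0.18 and GDF15 3.42 ± 0.36. The largest difference downward among the named genes was that of MMP9 (−1.72, adjusted p = 0.165) and the largest upward that of SLC7A11 (1.36, adjusted p = 0.127), and neither passed. The 24 h arrays enter this comparison and the one with untreated cells, so the values are given side by side only.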

How the data were processed

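RNA from 9 samples of HK-2 cells, each pooled from the plates of 1 time point and 1 run, was hybridised to 1-colour Affymetrix arrays. The deposited values are log2 values per probe set, made by the authors with GCRMA per the submitters' processing notes (version not given in the sources used here), and were used with no further normalization. GCRMA models background and normalizes between arrays, so differences that start near background are compressed. Array medians were 2.2 to 2.23. The number of arrays limits the precision.

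Of 22277 probe sets, 19064 named 1 gene through the platform annotation and a RefSeq gene table, and 1043 named several. The set with the highest mean over 9 arrays stood for each of 11963 genes, and genes reaching a log2 value of 4 on 3 or more arrays were tested. Differences were tested on the log2 values with limma 3.58.1 in R 4.3.3 (lmFit, eBayes), all 9 arrays in 1 fit with group and run as terms, Benjamini-Hochberg over 4368 genes and a threshold of 0.05. Every adjusted p comes from this fit unless another is named, and 1 SE per gene applies. The script was tested on simulated data.

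The run term rests on the replicate numbers: after subtraction of group means, same-numbered arrays had pairwise r from 0.378 to 0.662 and other pairs from −0.526 to 0.185, and the labels describe 3 experiments on different days. Runs are repeats of 1 cell line, so the p-values refer to variation between these repeats only. Each p-value weighs a difference against an error from the residuals of every array in the fit, and eBayes moderated that error across genes. The error is therefore not the spread of the within-run differences alone.

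Genes were named by rule: the 20 largest rises and 20 largest falls, up to 4 members of each gene list or family, genes crossing the filter level, the most and least even across runs, large differences that did not pass, and a fixed set. Some genes and lists are not reported here. The genes and lists were chosen with earlier results of these data known. List counts and medians are descriptions with no test. Promoter windows were from RefSeq (GRCh38.p14), which gave 3714 of the 4368 tested genes a window. Alternatives were the fit without the run, other arrays, filters, normalizations, probe set rules and variance models, and leaving out each array or run.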

Additional observations from a re-analysis of the deposited data

How the results depend on the processing

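No named gene that passed changed direction under any alternative run. Without the replicate block 115 genes were higher and 95 lower, and 93 of the 145 named genes that passed did so. With the block and only the 6 untreated and 24 h arrays the counts were 151 and 155, and without the block on these 6 arrays 70 and 54, with 68 named genes. The cause of these lower counts was not tested. A filter at a log2 value of 6 left 90 named genes, since it tests fewer. Leaving out 1 array or 1 run gave 119 to 251 higher and 99 to 303 lower genes, and 88 to 130 named genes. Run 3 mattered most, with 119 and 99 without it. Other filters, normalizations, probe set rules and variance models gave 194 to 345 higher and 184 to 321 lower genes. The 40 largest changes all passed without any 1 array, 39 passed without any 1 run (not MMP9, lost without run 1 or run 3), and 38 passed without the block, TNFAIP6 and FLRT3 being the exceptions. Of all 501 calls, 229 held without any 1 array. With 3 runs of 1 line and values compressed near background, small changes in dim genes are the least certain.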

Other observations

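Some genes of the kidney epithelium lay below the filter yet separated the groups at 24 h. They were named after their values were seen, and their adjusted p is from limma with the run in the model and no filter, over all 11963 genes. SLC17A3, an organic anion transporter of the apical membrane, read 4.12, 3.66 and 3.77 in untreated cells and 1.76, 2.1 and 1.81 at 24 h (−1.97, adjusted p = 0.000291). DEFB1, an antimicrobial peptide of the distal tubule, read 3.94, 4.18 and 4.27 before and 2.36, 2.15 and 2.26 after (−1.87, adjusted p = 5.17e-05). The sulfotransferase gene SULT1C2 fell by 1.93 (adjusted p = 0.00102), the circadian factor gene HLF by 2.45 (adjusted p = 0.00185) and DEPTOR, an inhibitor of the mTOR kinase, by 2.38 (adjusted p = 0.000829). In all 5 genes the treated arrays lay between 1.6 and 2.71, near the array medians, so the falls are compressed by the background.

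Other dim genes were higher at 24 h. SCG5, a secretory granule chaperone, went from 1.6, 1.65 and 1.62 to 4.04, 3.64 and 4.46 (2.42, adjusted p = 8.43e-05). SKIL, a SMAD corepressor induced by TGF-beta, went from 1.7, 2.02 and 2.19 to 2.73, 3.11 and 3.55 (1.16, adjusted p = 0.00375), and BAMBI, a decoy receptor of the family, rose by 1.2 (adjusted p = 0.023). Of the 7595 genes below the filter 50 were higher and 98 lower past the threshold in that fit, and among those of at least 2-fold with no overlap between the groups 9 were higher and 32 lower. A gene that rose to 4 could leave this set through the 6 treated arrays, while a gene that fell had to reach 4 on all 3 untreated arrays to leave it, so the split of these counts follows in part from the filter.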
